A study of Canis lupus familiaris with 8 samples.

Results

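The genes described here encode the nuclear subunits of the mitochondrial respiratory chain. They were taken from the 15947 dog genes measured on the arrays by symbol alone: genes whose symbols begin with NDUFA, NDUFB, NDUFC, NDUFS or NDUFV (complex I), SDH followed by A to D (complex II), UQCR (complex III), COX4 to COX8 (complex IV) or ATP5 (complex V). The rule found 69 genes. Of these, 57 encode subunits: 31 of complex I, 3 of complex II, 7 of complex III, 9 of complex IV and 7 of complex V. The other 12 share the letters of a subunit but have another task: 11 are assembly factors of complex I or II, and COX7A2L helps to join complexes III and IV. NDUFA4L2 was counted with complex IV, where the product of its relative NDUFA4 sits. Another 8 probe sets with a matching symbol list several genes and were not tested.

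The study measured total RNA of dog maxillary alveolar bone, the bone that holds the tooth roots, on 8 Affymetrix whole-transcript arrays, 2 per group, and asked how moving a tooth changes expression while a surgical bone defect heals. DT6 was tissue regenerated in the defect together with neighbouring bone, labelled as protracted, which is the forward movement of a tooth, at 6 weeks after surgery. D6 was the same kind of tissue without protraction at 6 weeks, D2 that at 2 weeks, and C was sound bone around premolar roots with no defect. The weeks were read from the digit in the sample titles; the labels give no breed or age. They also do not tie arrays to animals, so p-values here measure the spread between arrays, which may be technical.

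The respiratory chain sits in the inner mitochondrial membrane. Complexes I and II take electrons from NADH and succinate, complex III passes them to cytochrome c, and complex IV hands them to oxygen. The protons pumped on the way drive complex V, the ATP synthase. Osteoclasts, the cells that resorb bone, are known for their dense mitochondria, while osteoblasts also draw heavily on glycolysis, the breakdown of glucose outside the mitochondria.

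The values are the authors' deposited probe set values, taken as log2, and a difference of 1 is a 2-fold difference. Each difference is the first group minus the second and rests on 2 arrays per group; the error beside it is the standard error (SE) that limma moderates across genes. A gene "rose" or "fell" where limma's adjusted p, corrected over all 15947 genes, was under 0.05. A probe set's value depends on its probes, so values are compared between arrays for a gene and not between genes. As a rough guide to signal, 60 of the 69 had a mean value above that of the median gene on these arrays.

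Array medians lay between 6.25 and 6.31, and replicate arrays correlated across probe sets with r of 0.978 to 0.989. The mean value of 14 osteoblast and osteocyte markers was 9.53 to 10.14 in DT6, 9.64 to 10.05 in D6, 9.48 to 9.56 in D2 and 9.74 to 9.96 in C. Of them, COL1A1, the main bone collagen, lay between 13.00 and 13.72, and the bone sialoprotein gene IBSP between 10.02 and 12.19. DMP1, an osteocyte matrix protein, had 12.25 and 6.23 in DT6, 6.82 and 11.84 in D6, 6.40 and 6.89 in D2, and 9.63 and 11.62 in C. Against C, 1 of the 14 rose in each defect group (PDPN), and 0 fell in DT6, 1 in D6 and 2 in D2. Of all genes, 2.29%, 0.985% and 5.66% rose in these groups, and 0.746%, 0.771% and 2.74% fell. MEPE, an osteocyte matrix protein, fell by 1.61 in D6 and by 2.29 in D2, and SOST, which encodes the osteocyte protein sclerostin, fell by 1.33 in D2 (log2, limma). The D6 calls of PDPN and MEPE were lost without either C array, and that of PDPN also without D6 array 1, with adjusted p up to 0.151 (limma). Some arrays also carried transcripts of other tissue. The mean value of 18 airway epithelium markers was 8.08 to 8.11 in DT6 and 7.93 to 8.49 in D2, against 5.03 to 5.37 in D6 and 5.11 to 5.35 in C. The mean value of 18 oral epithelium markers was high on D6 array 1 (8.94) and D2 array 2 (7.72) and between 5.40 and 5.86 on the other 6 arrays. Bulk RNA cannot tell a change in the number of cells of a type from a change in RNA per cell.

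Against sound bone, most chain genes lay slightly higher in the defect tissue, and few differences passed the test. The median difference over the 69 genes was 0.15 in DT6, 0.14 in D6 and 0.14 in D2, where the median over all genes was -0.01, 0.01 and -0.01. Over genes brighter than the median gene it was 0.03, 0.04 and 0.03. In DT6, 50 of the 69 genes were higher than in C, in D6 48 and in D2 49. Of all genes, 48.6%, 51.6% and 48.1% were higher. Of the 7974 genes at or above the level of the median gene, 4368, 4430 and 4330 were higher. The comparisons with C use the same 2 C arrays, so they are not independent. About as many genes lay within 0.25 of C as beyond it: 36 in DT6, 36 in D6 and 34 in D2. None of the 69 differed from C by 2-fold or more in any of the 3 groups.

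In DT6 against C, 3 of the 69 genes rose and 0 fell, which is 4.35% called beside 3.04% of all genes (2.29% rose and 0.746% fell). In D6 against C, 2 rose and 0 fell, 2.90% beside 1.76% of all genes (0.985% rose and 0.771% fell). In D2 against C, 4 rose and 1 fell, 7.25% beside 8.4% of all genes (5.66% rose and 2.74% fell). These shares are near those of all genes, so the number of calls says nothing particular of the chain. An unadjusted limma p under 0.05 was found for 18 of the 69 in DT6, 18 in D6 and 21 in D2, beside 17.6%, 16.4% and 23.8% of all genes. An F test over the 4 groups called 3 of the 69, beside 4.51% of all genes.

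**Figure D1:**
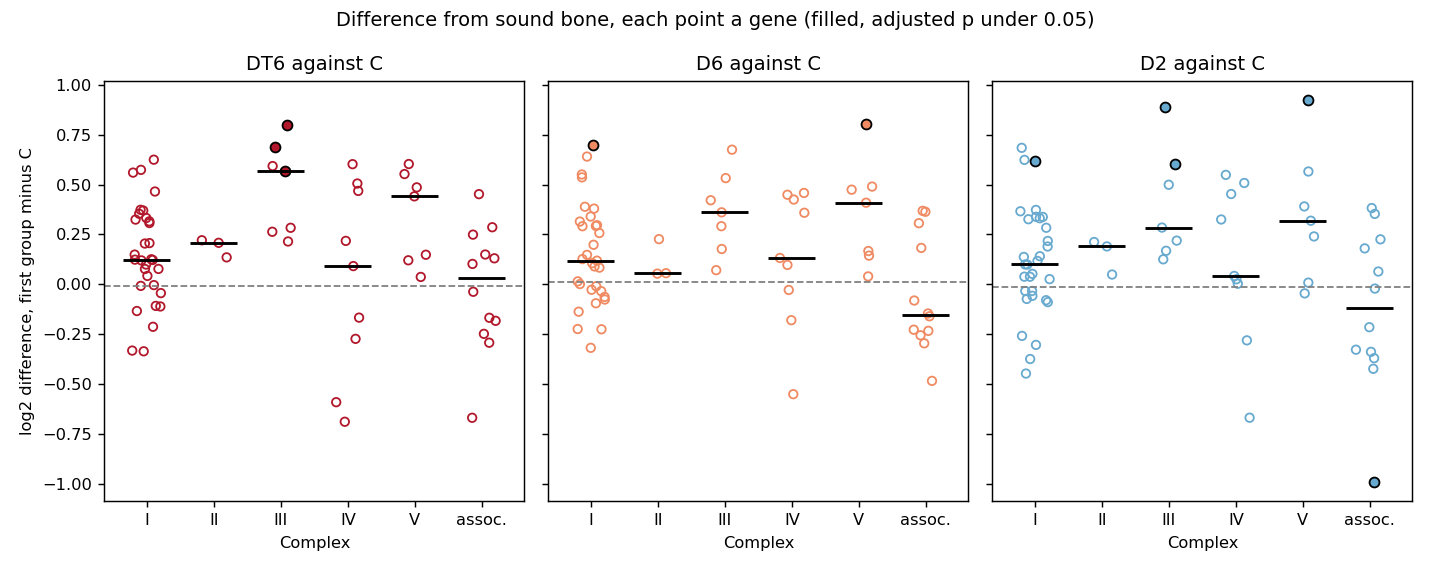
Log2 difference from C of each chain gene (vertical axis), by complex (horizontal axis), for DT6, D6 and D2. Filled points had a limma adjusted p under 0.05, short black lines are medians of a complex, and the dashed line is the median of all 15947 genes; the complex III and complex V genes lie almost wholly above it, and the associated genes (assoc.) spread to both sides.

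The array values show that the size of the shift depends on single arrays, among them C array 1. Of the 69 genes, 52 were lower on C array 1 than on C array 2, against 52.7% of all genes. NDUFA8, an accessory subunit of complex I, had 9.42 and 9.31 in DT6, 9.31 and 9.27 in D6, 9.42 and 9.31 in D2, and 8.40 and 9.08 in C. All 6 defect arrays lay above both C arrays, but the C arrays stood further apart than the defect arrays did. Without C array 1 the median difference of the 69 genes was 0.12 in DT6, 0.08 in D6 and 0.03 in D2. Without C array 2 it was 0.23, 0.23 and 0.22. In the DT6 pair, 45 of the 69 genes were lower on array 1, against 51.6% of all genes, and without DT6 array 2 the DT6 median was 0.09. In the D6 pair 46 were lower on array 2, against 49.4%, and in the D2 pair 32 were lower on array 1, against 51%.

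A gene-by-gene view of separation gives a similar picture. For 22 of the 69 genes all 6 defect arrays lay above both C arrays, and for 2 they lay below; of all genes, 12.8% and 10.5% did so. The 22 were 10 genes of complex I, 1 of complex II, 4 of complex III, 2 of complex IV, 4 of complex V and 1 associated gene. By single comparison, the groups did not overlap and the defect tissue was higher for 27 genes in DT6, 28 in D6 and 32 in D2, against 22.1%, 25.8% and 27.9% of all genes. It was lower without overlap for 3, 5 and 11 genes, against 19.5%, 22.7% and 28.4% of all genes. Of the 7974 genes at or above the median gene's level, 2063, 2479 and 2682 were higher without overlap and 1287, 1813 and 2122 lower.

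**Figure D2:**
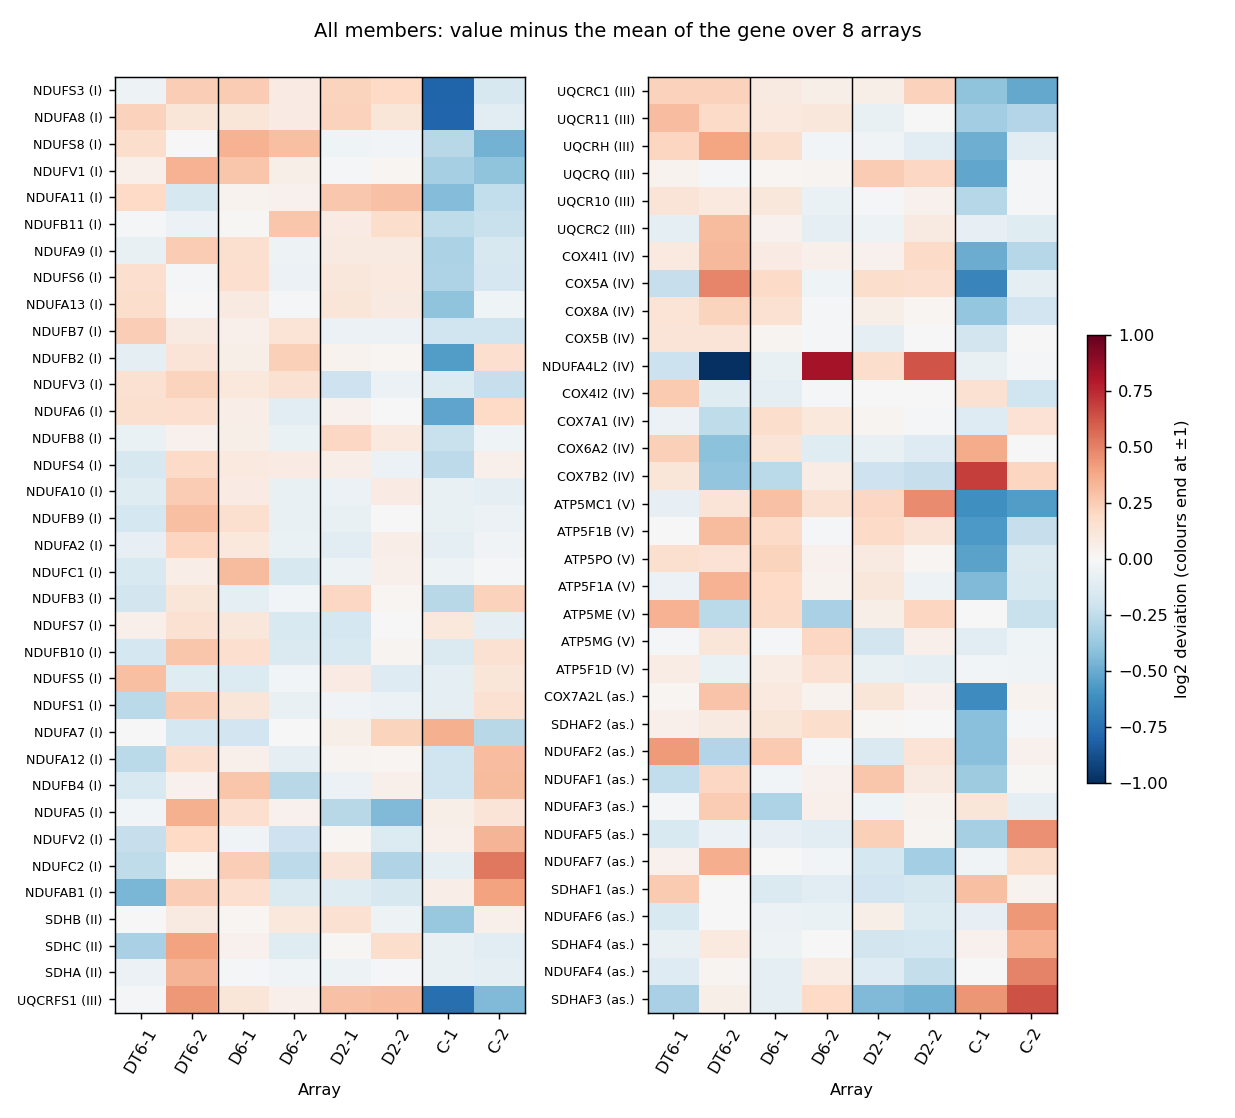
Log2 value of each of the 69 genes on each array minus the mean of that gene over the 8 arrays, with the complex in brackets (as., associated). Columns are arrays in the order DT6, D6, D2 and C; blue in the C-1 column marks the genes whose value on C array 1 lay below their mean, as for NDUFS3 and NDUFA8.

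In complex III every measured gene lay above C in each defect group, 7 of 7 in DT6, in D6 and in D2. Its median difference was 0.57 in DT6, 0.36 in D6 and 0.28 in D2. Of the 7 genes, 3 rose in DT6, 0 in D6 and 2 in D2, beside 2.29%, 0.985% and 5.66% of all genes. Without C array 1 the complex III medians were 0.40, 0.17 and 0.25, and without C array 2 they were 0.59, 0.48 and 0.41.

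UQCRFS1 encodes the Rieske iron-sulfur protein, which passes electrons within complex III. It had 8.12 and 8.56 in DT6, 8.25 and 8.18 in D6, 8.42 and 8.44 in D2, and 7.38 and 7.69 in C. Every defect array lay above both C arrays, with the widest gap inside a group between the 2 DT6 arrays. It rose by 0.80 ± 0.17 in DT6, which is 1.74-fold (adjusted p = 0.0476, limma), and by 0.89 ± 0.17 in D2, which is 1.86-fold (adjusted p = 0.018). In D6 the difference was 0.68 ± 0.17 (adjusted p = 0.0942). Its difference in DT6 was 0.58 without DT6 array 2 (adjusted p = 0.127) and 1.02 without DT6 array 1.

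UQCRC1 encodes a core protein on the matrix side of complex III. It had 7.96 and 7.96 in DT6, 7.82 and 7.79 in D6, 7.79 and 7.96 in D2, and 7.33 and 7.22 in C. The C arrays lay well below the other 6, and for this gene C array 1 was the higher of the 2. It rose by 0.69 ± 0.13 in DT6, which is 1.61-fold (adjusted p = 0.0274, limma), and by 0.60 ± 0.13 in D2 (adjusted p = 0.0236). In D6 the difference was 0.53 ± 0.13 (adjusted p = 0.0772).

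UQCR11, a small subunit at the edge of complex III, had 8.03 and 7.92 in DT6, 7.82 and 7.84 in D6, 7.65 and 7.73 in D2, and 7.38 and 7.43 in C. The 4 groups did not overlap at any step of that order. It rose by 0.57 ± 0.12 in DT6 (adjusted p = 0.0463, limma), and the differences of 0.42 ± 0.12 in D6 (adjusted p = 0.131) and 0.28 ± 0.12 in D2 (adjusted p = 0.2) did not pass. The steps between neighbouring groups did not pass either: 0.14 ± 0.12 for DT6 against D6 and 0.14 ± 0.12 for D6 against D2.

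The other 4 genes of complex III did not pass in any comparison. UQCRH, the hinge protein near cytochrome c, differed from C by 0.59 ± 0.16 in DT6 (adjusted p = 0.0951, limma), 0.36 ± 0.16 in D6 and 0.22 ± 0.16 in D2. UQCRQ, a small subunit beside cytochrome b, differed by 0.28 ± 0.17, 0.29 ± 0.17 and 0.50 ± 0.17. The core gene UQCRC2 and the small subunit gene UQCR10 differed by 0.07 to 0.26.

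**Figure D3:**
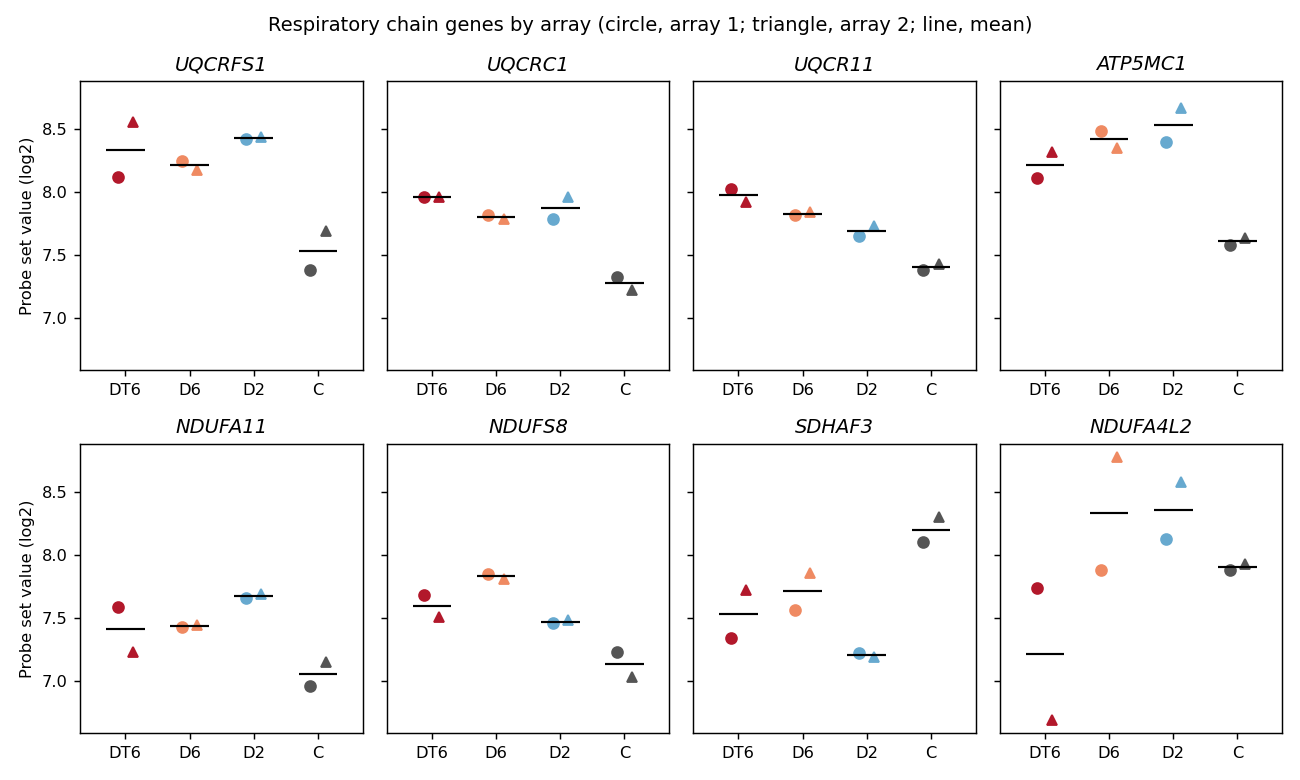
Log2 probe set value (vertical axis) by group for the 7 chain genes that passed the test against C in at least 1 group, and for NDUFA4L2. Circles are array 1, triangles array 2 and lines the mean of 2 arrays; UQCRC1 and ATP5MC1 show C well below the other groups, SDHAF3 shows C above them, and NDUFA4L2 shows replicate arrays up to 1.05 apart.

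In complex V, 7 of 7 genes were higher than C in DT6, 7 in D6 and 6 in D2, with medians of 0.44, 0.41 and 0.32. In DT6 0 of the 7 rose, in D6 1 and in D2 1, beside 2.29%, 0.985% and 5.66% of all genes. The gene called was ATP5MC1, which encodes subunit c of the proton-driven rotor ring. It had 8.11 and 8.32 in DT6, 8.49 and 8.35 in D6, 8.40 and 8.67 in D2, and 7.58 and 7.64 in C. Its 2 C arrays were close together and far from the other 6. ATP5MC1 rose by 0.81 ± 0.14 in D6, which is 1.75-fold (adjusted p = 0.0327, limma), and by 0.92 ± 0.14 in D2, which is 1.90-fold (adjusted p = 0.00721). In DT6 the difference was 0.60 ± 0.14 (adjusted p = 0.0662). The D2 value had the lowest adjusted p of any chain gene in any comparison.

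The genes of the catalytic head and the stalk gave smaller values. ATP5F1B, the catalytic beta subunit, had 9.87 and 10.19 in DT6, 10.07 and 9.86 in D6, 10.07 and 10.01 in D2, and 9.30 and 9.65 in C, with differences of 0.55 ± 0.17, 0.49 ± 0.17 and 0.57 ± 0.17 (adjusted p = 0.136, 0.197 and 0.0792, limma). ATP5F1A, the alpha subunit, differed by 0.44, 0.41 and 0.32, and ATP5PO, part of the stalk that holds the head still, by 0.49, 0.47 and 0.39. For these 3 genes too, every defect array lay above both C arrays. ATP5F1D, ATP5MG and ATP5ME differed from C by -0.05 to 0.24, and ATP5ME had low values, 3.60 to 4.27. Without C array 1 the complex V medians were 0.30 in DT6, 0.27 in D6 and 0.20 in D2.

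Complex I, the largest complex, had smaller medians than complexes III and V. In DT6, 22 of its 31 genes were higher than C, in D6 21 and in D2 21, with medians of 0.12, 0.12 and 0.10. In DT6 0 of the 31 rose, in D6 1 and in D2 1, beside 2.29%, 0.985% and 5.66% of all genes. The 6 measured core genes, which carry the electron path, had medians of 0.28, 0.26 and 0.13, and the 25 accessory genes 0.12, 0.12 and 0.10. Without DT6 array 2 the complex I median in DT6 was 0.05, without D6 array 1 that in D6 was 0.01, and without C array 1 that in D2 was 0.02.

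NDUFS8, a core subunit that carries iron-sulfur clusters, had 7.68 and 7.51 in DT6, 7.85 and 7.81 in D6, 7.46 and 7.48 in D2, and 7.23 and 7.03 in C. Its values were highest in D6, above those of all other groups, and lowest in C. It rose by 0.70 ± 0.14 in D6, which is 1.62-fold (adjusted p = 0.0429, limma), while the differences of 0.47 ± 0.14 in DT6 (adjusted p = 0.119) and 0.34 ± 0.14 in D2 (adjusted p = 0.169) did not pass. NDUFS8 in D6 against D2 differed by 0.36 ± 0.14 (adjusted p = 0.48).

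NDUFA11, an accessory subunit of the membrane arm, had 7.59 and 7.23 in DT6, 7.43 and 7.44 in D6, 7.66 and 7.69 in D2, and 6.96 and 7.15 in C. The D2 arrays were above all others, and DT6 array 2 lay just above the higher C array. It rose by 0.62 ± 0.16 in D2, which is 1.54-fold (adjusted p = 0.0445, limma), with differences of 0.35 ± 0.16 in DT6 and 0.38 ± 0.16 in D6.

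Large differences elsewhere in complex I did not pass. NDUFS3, a core subunit, had 8.59 and 8.88 in DT6, 8.89 and 8.72 in D6, 8.86 and 8.84 in D2, and 7.84 and 8.48 in C. It differed by 0.57 ± 0.21, 0.64 ± 0.21 and 0.68 ± 0.21 (adjusted p = 0.192, 0.164 and 0.0777, limma), with C array 1 far below C array 2. NDUFV1, which binds NADH, differed by 0.56 ± 0.15, 0.54 ± 0.15 and 0.37 ± 0.15, and NDUFA8 by 0.63, 0.55 and 0.62. In the other direction NDUFA5, an accessory subunit, had 7.36 and 7.74 in DT6, 7.55 and 7.43 in D6, 7.11 and 6.94 in D2, and 7.44 and 7.51 in C. Its D2 arrays lay below all others, by 0.45 ± 0.16 against C (adjusted p = 0.124). NDUFV2, NDUFC2 and NDUFAB1 were also lower than C in each defect group, by 0.21 to 0.37.

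Complex II, which also works in the citric acid cycle, showed small values. SDHA, SDHB and SDHC were higher than C in each group, by 0.14 to 0.22 in DT6, by 0.05 to 0.23 in D6 and by 0.05 to 0.21 in D2, and 0 of 3 passed. SDHA, the succinate-oxidising subunit, had 8.36 and 8.76 in DT6, 8.40 and 8.38 in D6, 8.37 and 8.40 in D2, and 8.34 and 8.33 in C. Apart from DT6 array 2 these arrays lay within 0.07 of each other.

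The largest fall belonged to a helper of complex II. SDHAF3, an assembly factor known from yeast and flies to protect the iron-sulfur subunit of complex II, had 7.34 and 7.72 in DT6, 7.56 and 7.86 in D6, 7.22 and 7.19 in D2, and 8.10 and 8.30 in C. All 6 defect arrays lay below both C arrays. It fell by 0.99 ± 0.17 in D2 (adjusted p = 0.0113, limma), and differed by -0.67 ± 0.17 in DT6 (adjusted p = 0.0835) and by -0.48 ± 0.17 in D6 (adjusted p = 0.206). The D6 arrays were above the D2 arrays, by 0.51 ± 0.17 (adjusted p = 0.378). Over the 11 assembly factors the median difference was -0.04 in DT6, -0.16 in D6 and -0.22 in D2, and 5, 3 and 4 of the 11 were higher than C. Without C array 2 these medians were 0.01, 0.03 and -0.13. COX7A2L differed by 0.45 ± 0.21, 0.36 ± 0.21 and 0.38 ± 0.21, with 7.50 on C array 1 and 8.15 to 8.41 on the other 7 arrays.

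Complex IV held both the common form of a subunit and forms known from particular tissues or conditions. Its median difference was 0.09 in DT6, 0.13 in D6 and 0.04 in D2, and 0 of its 9 genes passed. In each group 3 had an unadjusted limma p under 0.05, beside 17.6%, 16.4% and 23.8% of all genes. Of the 3, 2 were higher than C and 1, COX7B2, was lower. The common forms measured were COX4I1 and COX8A. COX4I1 had 9.73 and 9.95 in DT6, 9.71 and 9.68 in D6, 9.67 and 9.82 in D2, and 9.13 and 9.34 in C. Every defect array lay above both C arrays, by 0.60 ± 0.14 in DT6, 0.46 ± 0.14 in D6 and 0.51 ± 0.14 in D2 (adjusted p = 0.064, 0.155 and 0.063, limma). COX8A differed by 0.47 ± 0.13, 0.36 ± 0.13 and 0.33 ± 0.13, again without overlap. COX5A, a subunit on the matrix side, differed by 0.51 ± 0.25, 0.45 ± 0.25 and 0.55 ± 0.25, with 7.79 and 8.36 in C.

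The restricted forms behaved differently from gene to gene, and 0 of the 5 in complex IV passed. The list of restricted forms also held ATP5MC1 of complex V, which rose in D6 and D2. COX7B2, known as a testis form, had 5.39 and 4.87 in DT6, 5.0 and 5.34 in D6, 5.06 and 5.04 in D2, and 5.96 and 5.48 in C, with differences of -0.59 ± 0.24, -0.55 ± 0.24 and -0.67 ± 0.24 (adjusted p = 0.246, 0.293 and 0.125, limma). The heart and skeletal muscle forms COX6A2 and COX7A1 differed from C by -0.28 to 0.13, and the lung form COX4I2 by -0.03 to 0.09. Of the 32 measured skeletal muscle markers, 0 passed by limma in any comparison with C. An unadjusted p under 0.05 was found for 1 in DT6, 2 in D6 and 3 in D2, beside 17.6%, 16.4% and 23.8% of all genes. The mean value of the 32 was 4.78 to 5.08 in DT6, 4.95 to 4.96 in D6, 4.77 to 4.95 in D2 and 4.94 to 5.11 in C.

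NDUFA4L2, known as a gene switched on by low oxygen, was the most variable of the 69. It had 7.74 and 6.69 in DT6, 7.88 and 8.78 in D6, 8.13 and 8.58 in D2, and 7.88 and 7.93 in C. The DT6 arrays lay below those of the other groups, but they stood 1.05 apart. DT6 against D6 gave -1.12 ± 0.36 (adjusted p = 0.399, limma), the only difference of 2-fold or more for a chain gene in any comparison, and it did not pass. Against C it gave -0.69 ± 0.36 in DT6, 0.43 ± 0.36 in D6 and 0.45 ± 0.36 in D2.

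Each of these calls rested on few arrays. In D2 against C, leaving out C array 1 or D2 array 2 ended all 5 calls (limma adjusted p of 0.0525 to 0.213). Leaving out D2 array 1 kept only ATP5MC1, and leaving out C array 2 kept ATP5MC1 and UQCRFS1. NDUFA11 was also lost without either D6 array. In D6 against C, both calls were lost when any C, D2 or D6 array was left out (0.0595 to 0.24). In DT6 against C, UQCR11 was lost without any one of the 8 arrays, UQCRFS1 without any except DT6 array 1, and UQCRC1 without any C or D2 array or DT6 array 2. The differences themselves kept their sign: with each array left out in turn ATP5MC1 in D2 stayed between 0.79 and 1.06, UQCRC1 in DT6 between 0.63 and 0.74, and SDHAF3 in D2 between -1.09 and -0.89.

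Without D2 array 2 and D6 array 1 together, the 2 arrays with high oral epithelium markers, 0 of the 69 genes passed in any comparison; this setting was chosen after seeing the data. The medians were then 0.15 in DT6, 0.09 in D6 and 0.14 in D2. That setting left 1 array each in D6 and D2, so only the sizes of the differences can be read from it.

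The comparison of D6 with D2 sets 6 weeks of healing beside 2 weeks. The groups also differed in airway epithelium markers, of which 15 of 18 fell in D6 by limma, with a median difference of -2.92. Healing time and this difference in tissue cannot be told apart. The chain genes differed little: 65 of the 69 genes lay within 0.25 of each other, and 37 were higher in D6. Their median difference was 0.01, where all genes gave 0.02 and 54.3% of them were higher. By limma 0 of the 69 passed, beside 1.68% of all genes, and 3 had an unadjusted p under 0.05, beside 7.88% of all genes: SDHAF3, NDUFA5 and NDUFS8, all higher in D6. NDUFA5 differed by 0.46 ± 0.16 (adjusted p = 0.381). By complex the medians were 0.02 for I, 0.00 for II, -0.05 for III, 0.03 for IV and 0.08 for V. The groups did not overlap for 17 genes higher in D6 and 11 lower, against 23.5% and 19.8% of all genes.

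The comparison of DT6 with D6 sets tissue with tooth movement beside tissue without it at 6 weeks. The groups also differed in airway epithelium markers, of which 15 of 18 rose in DT6 by limma, with a median difference of 2.78. Tooth movement and this difference in tissue cannot be told apart. Here 66 of the 69 genes lay within 0.25, 40 were higher in DT6, and the median difference was 0.03, where all genes gave -0.02 and 45.9% were higher. By limma 0 of the 69 passed, beside 1.52% of all genes, and 1 had an unadjusted p under 0.05, NDUFA4L2, beside 6.52% of all genes. The groups did not overlap for 9 genes higher in DT6 and 6 lower, against 13.6% and 15.4% of all genes. Complex III had the highest median, 0.14, with 6 of 7 genes higher in DT6. UQCRH had 8.58 and 8.76 in DT6 and 8.53 and 8.34 in D6, a difference of 0.23 ± 0.16 with no overlap. The other medians were 0.02 for complex I, 0.08 for II, 0.06 for IV and 0.01 for V. With a median SE of 0.17 for these genes and 2 arrays per group, differences of the sizes seen between defect groups were not detectable one by one.

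**Figure D4:**
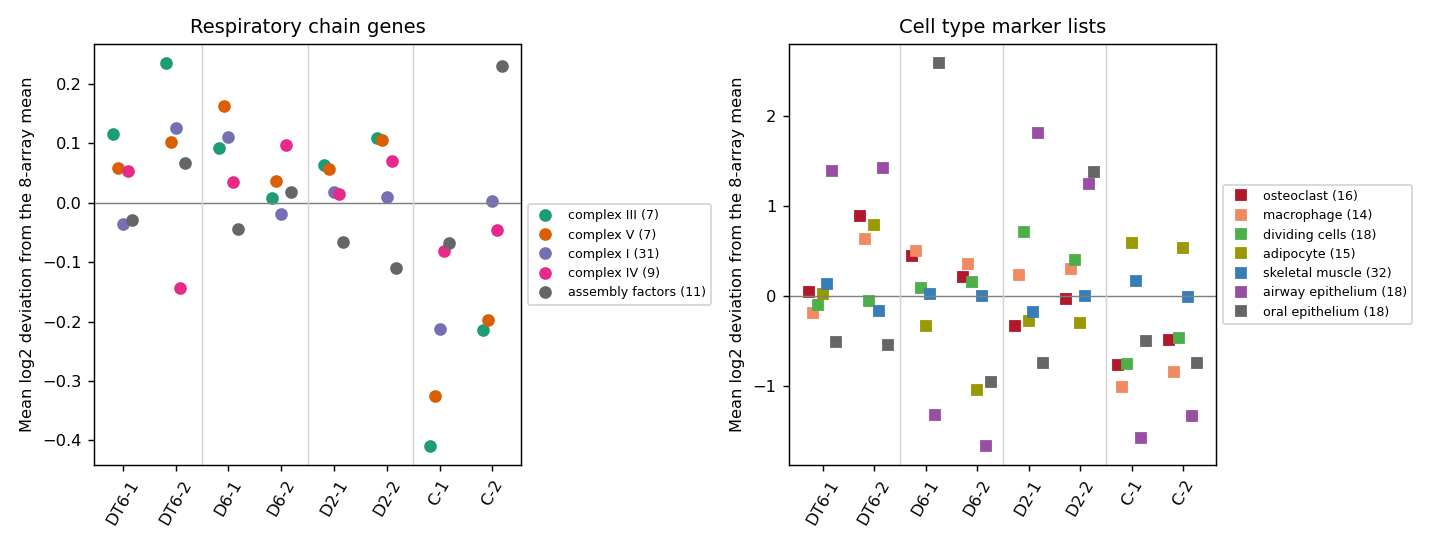
Left, mean log2 deviation from the 8-array mean over the genes of a complex, for each array; right, the same for lists of cell type markers (numbers in brackets are genes). The mean for complex III is -0.41 and -0.21 on the C arrays and between 0.01 and 0.24 on the other 6, and the macrophage and dividing cell lists are also lowest on the C arrays.

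Markers of several cell types differed between C and the defect groups in the same direction as the chain genes. The mean value of 14 macrophage markers was 8.24 to 9.06 in DT6, 8.77 to 8.92 in D6 and 8.65 to 8.73 in D2, against 7.41 to 7.58 in C, and 6, 9 and 10 of them rose. Of all genes, 2.29% rose in DT6, 0.985% in D6 and 5.66% in D2. The mean of 16 osteoclast markers was 8.01 to 8.86, 8.18 to 8.41 and 7.63 to 7.93, against 7.20 to 7.48 in C, and 4, 3 and 1 rose. Markers of dividing cells were at 5.94 to 5.99, 6.13 to 6.20 and 6.44 to 6.75, against 5.29 to 5.57 in C, with 2, 3 and 12 of 18 rising. Adipocyte markers ran the other way in D6 and D2, at 7.74 to 8.49 in DT6, 6.67 to 7.39 in D6 and 7.42 to 7.43 in D2, against 8.24 to 8.30 in C. Of these 15 markers, 1 fell in DT6, 4 in D6 and 6 in D2, where 0.746%, 0.771% and 2.74% of all genes fell. UCP1, which lets protons bypass complex V in brown fat, fell by 1.12 in DT6, by 1.52 in D6 and by 0.83 in D2. Its call in DT6 was lost without DT6 array 2 or C array 2 (highest adjusted p 0.0727, limma), its call in D6 without D6 array 1, C array 1 or C array 2 (highest 0.099), and its call in D2 without either D2 array or C array 2 (highest 0.147). Most of the macrophage, osteoclast and adipocyte calls, and many of the dividing cell calls, were likewise lost when a single array was left out. All of them kept their sign. The part of these cell types, and of the airway and oral epithelium markers, in the chain genes' differences was not tested.

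The remaining genes of electron transport and of mitochondrial upkeep were read from lists written from general knowledge. Of 9 measured carriers and partners of the chain, 0 rose in DT6, 0 in D6 and 1 in D2, beside 2.29%, 0.985% and 5.66% of all genes. Their medians were 0.13, 0.00 and 0.05. The gene that rose was CYC1, the cytochrome c1 of complex III, which the symbol rule does not reach. It had 7.86 and 8.12 in DT6, 8.09 and 7.78 in D6, 7.98 and 8.03 in D2, and 7.39 and 7.39 in C. It rose by 0.61 ± 0.15 in D2 (adjusted p = 0.0432, limma), with 0.60 ± 0.15 in DT6 (adjusted p = 0.08) and 0.55 ± 0.15 in D6 (adjusted p = 0.113). CYC1 lay above both C arrays on all 6 defect arrays. So did 4 of the 7 complex III genes of the rule and 12.8% of all genes.

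Among 27 further assembly factors 2 rose, both in D2, which is 7.41% called there beside 8.4% of all genes. ATPAF1, which helps build the head of the ATP synthase, rose by 0.63 ± 0.13 (adjusted p = 0.0196, limma). COX10, which takes part in making the heme of complex IV, rose by 0.73 ± 0.19 (adjusted p = 0.0469, limma). The medians of the 27 were 0.14 in DT6, 0.04 in D6 and 0.04 in D2. The 20 measured regulators of mitochondrial biogenesis, among them PPARGC1A, had medians of -0.03, -0.06 and -0.09, and 0 of 20 passed in any group by limma. Their numbers with an unadjusted p under 0.05 were 1, 2 and 3. PPRC1, a coactivator related to PPARGC1A, differed by 0.52 ± 0.15 in D2 (adjusted p = 0.0654). Of 73 mitochondrial ribosomal proteins 0 passed in any group, with medians of 0.10, 0.09 and 0.06, and 10, 9 and 10 had an unadjusted p under 0.05. Of all genes, 17.6%, 16.4% and 23.8% had an unadjusted limma p under 0.05 in these groups. Of the genes carried by mitochondrial DNA only COX1 was listed. It lay between 13.34 and 13.53 on all arrays, with differences from C of 0.06 in DT6, 0.00 in D6 and 0.12 in D2.

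Fuel pathways that feed the chain held a few larger changes. In the citric acid cycle 2 of 17 genes rose in DT6, 1 in D6 and 2 in D2, with medians of 0.17, 0.14 and 0.18, beside 2.29%, 0.985% and 5.66% of all genes that rose. OGDH, a subunit of the 2-oxoglutarate dehydrogenase, had 8.55 and 8.53 in DT6, 8.61 and 8.48 in D6, 8.55 and 8.49 in D2, and 7.83 and 7.84 in C. It rose by 0.70 ± 0.12, 0.71 ± 0.12 and 0.69 ± 0.12 (adjusted p = 0.0196, 0.0278 and 0.0115, limma). IDH2, the mitochondrial NADP-dependent isocitrate dehydrogenase, rose by 0.94 ± 0.19 in DT6 and 1.04 ± 0.19 in D2, with C arrays at 7.81 and 8.41. Of 11 carriers and porins of the mitochondrial membranes, 1 rose in DT6, 0 in D6 and 1 in D2, with medians of 0.11, 0.09 and 0.09, and 4, 5 and 3 were lower than in C. The gene called was SLC25A5, which exchanges ATP for ADP across the inner membrane. It rose by 0.97 ± 0.18 in DT6 and 0.85 ± 0.18 in D2, and differed by 0.86 ± 0.18 in D6 (adjusted p = 0.0539).

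Fatty acid oxidation had medians of 0.17 in DT6, -0.09 in D6 and -0.11 in D2 over 13 genes. ACADVL, which starts the breakdown of very long chains, rose by 0.57 ± 0.12 in DT6 (adjusted p = 0.0408, limma), and ACADL, which acts on long chains, fell by 0.74 ± 0.17 in D2 (adjusted p = 0.0354). The 15 adipocyte markers had medians of -0.20, -1.16 and -0.83 in the same groups, and their part in these values was not tested. Glycolysis had the highest medians of these lists, 0.27 in DT6, 0.25 in D6 and 0.23 in D2, and 3, 2 and 5 of its 19 genes rose, against the shares of all genes given with the citric acid cycle. ENO1, the glycolytic enolase, rose by 0.65 ± 0.12, 0.73 ± 0.12 and 0.72 ± 0.12, and PKM, the pyruvate kinase, by 0.91 ± 0.14 in D6 and 0.70 ± 0.14 in D2. The 63 cytosolic ribosomal proteins had medians of 0.10, -0.01 and -0.05. Between D6 and D2, and between DT6 and D6, 0 genes of the citric acid cycle, carrier, fatty acid oxidation and glycolysis lists passed by limma. Leaving out C array 1 ended every call named here in the lists other than the cell type markers (the highest adjusted p with 1 array left out was 0.27, limma, for COX10), and all kept their sign. An unadjusted limma p under 0.05 was found for 1 glycolysis gene in D6 against D2, beside 7.88% of all genes. In DT6 against D6 it was found for 2 glycolysis and 3 fatty acid oxidation genes, beside 6.52% of all genes.

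**Figure D5:**
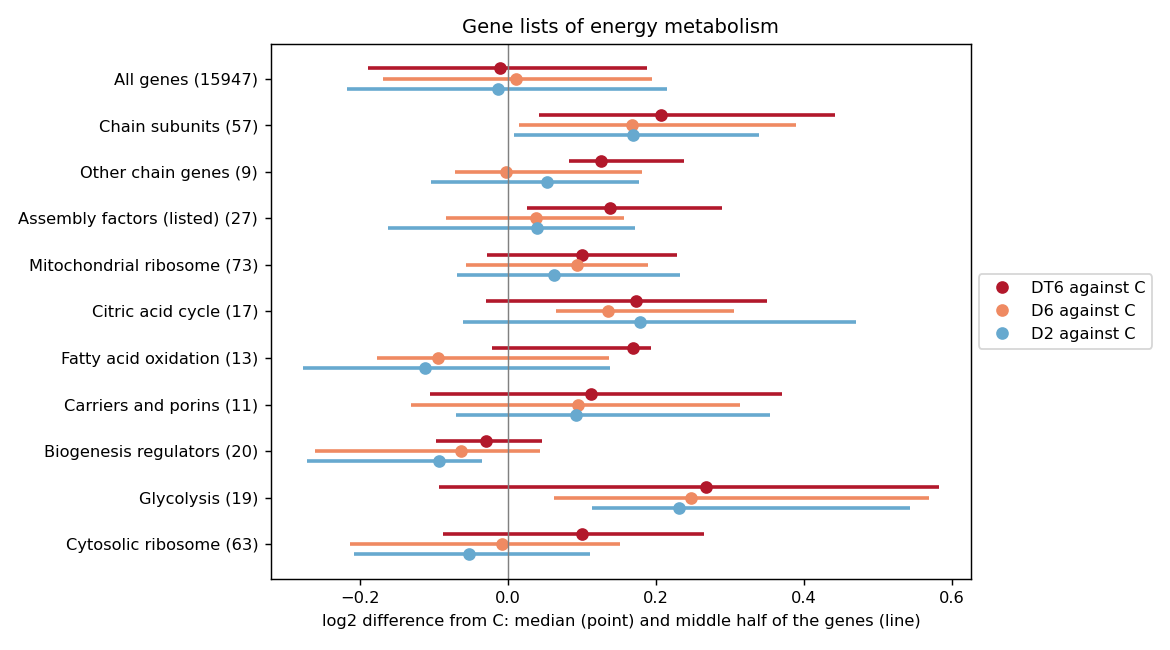
Median log2 difference from C (points) and range from the first to the third quartile of genes (lines) for gene lists of energy metabolism and protein synthesis, with the number of genes in brackets. The 57 chain subunits have medians of 0.21 in DT6, 0.17 in D6 and 0.17 in D2; the glycolysis list lies at 0.23 to 0.27 and all genes at about 0.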

How the data were processed

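Total RNA of dog alveolar bone was labelled with biotin and hybridised to 8 whole-transcript arrays, 2 per group, per the labels' protocols. The authors deposited 1 log2 value per probe set and array for 22708 probe sets. The sources used here state neither their probe summary nor their normalization or log base; base 2 was assumed, and the close array medians were taken to mean that the values were already normalized. Arrays have no sequencing depth, and their number limits the precision.

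The platform annotation names a single gene for 16545 probe sets, several for 370 and none for 5793; single-gene probe sets were used. Where a gene had several (516 genes), its brightest by mean stood for it, which left 15947 genes. Each of the 69 chain genes had 1. Identifiers of 15820 probe sets matched a RefSeq table of UU_Cfam_GSD_1.0, and 0 symbols changed. Coordinates are left out, as the values name no genome build.

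All 8 arrays entered 1 fit in limma 3.58.1 (R 4.3.3): group means, eBayes with a variance trend, 4 residual degrees of freedom, two-sided tests and Benjamini-Hochberg adjustment over 15947 genes in each of 5 comparisons. The steps were tested on simulated data. The members, the gene lists and the naming rule were chosen with earlier results of these data known. The rule takes, per comparison and complex, up to 4 genes past the threshold or up to 2 with the largest difference, the isoform pairs, and up to 3 per other list. Genes given as a further range were added after their values were seen. Alternatives are in the closing section.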

Additional observations from a re-analysis of the deposited data

How the results depend on the processing

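Each count of chain genes past limma's threshold and each median was recomputed under other settings. Without a variance trend 1 passed in DT6 against C, 0 in D6 and 4 in D2; after quantile normalization 5, 1 and 7; without dim genes 1, 2 and 5; with the compared groups alone 0, 1 and 5. The mean of all probe sets of a gene gave 3, 2 and 5, as in the report. Each chain gene had a single probe set, so this setting left their values unchanged and could act only through other genes in the fit. Leaving out each array in turn gave 0 to 4 in DT6 against C, 0 to 3 in D6 and 0 to 7 in D2, and 0 throughout in D6 against D2 and DT6 against D6. The F test over the 4 groups passed 3 genes: ATP5MC1, UQCRC1 and SDHAF3 (adjusted p = 0.0232, 0.044 and 0.0478), beside 4.51% of all genes. It passed 1 without a trend, 1 without dim genes, 4 after quantile normalization and 0 to 5 with an array left out. Without D2 array 2 and D6 array 1, which carry oral epithelium transcripts (a setting added after seeing the data), it passed 0, as did every comparison.

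The median difference of the 69 genes with each array left out ran from 0.09 to 0.25 in DT6 against C, 0.08 to 0.23 in D6 and 0.0331 to 0.2199 in D2. It ran from -0.0386 to 0.0549 in D6 against D2 and from -0.0675 to 0.0994 in DT6 against D6. Quantile normalization gave medians of 0.14, 0.11 and 0.10 against C, with all genes at -0.04, -0.01 and -0.05.

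The sample titles number the arrays 1 and 2 in each group. Same-numbered arrays of 2 groups had residual correlations of -0.26 to 0.19. With 2 arrays per group the deviations of a gene mirror each other, so these correlations cannot show whether same-numbered arrays share an animal or batch. The main fit did not treat them as pairs. With the replicate block 0 chain genes passed in DT6 against C, 0 in D6, 4 in D2 and 2 in the F test. Over 83 gene results and 1230 alternatives, 1139 kept their direction and their side of the threshold, 81 no longer passed, 10 newly passed and 0 reversed. Only 10 of the 83 results were calls, so the others had no call to lose and every loss fell on these 10. The alternatives include the mean of probe sets, which left the chain gene values as they were. The cause of these changes was not tested. With 2 arrays per group, the smallest chain gene difference that passed was 0.57.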

Other observations

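Of the 8 probe sets with a chain symbol that list several genes, the 1 that pairs NDUFA4, a subunit of complex IV, with a locus identifier had 8.0 and 8.51 in DT6, 8.35 and 8.15 in D6, 8.38 and 8.52 in D2, and 7.62 and 8.01 in C. The 1 that holds ATP5MC3, another gene for subunit c of the ATP synthase, had 8.03 and 8.59, 8.38 and 8.07, 8.12 and 8.16, and 7.79 and 8.07 in the same groups. The 1 that holds ATP5MC2, also a subunit c gene, had 6.52 and 6.91 in DT6, 6.36 and 6.39 in D6, 6.81 and 6.48 in D2, and 7.0 and 6.69 in C. These values were not tested, and which of the listed genes they measure was not examined.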
